A study of Mus musculus with 6 samples.

Results

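Heat shock proteins and J-domain cochaperones were followed in the livers of 3 WT and 3 Vps15LKO mice, with 1 RNA-Seq library per liver. Members were the protein-coding genes whose symbols belong to the Hspa, Hspb, Hspd, Hspe, Hsph and Hsp90b families of heat shock proteins or to the Dnaja, Dnajb and Dnajc families, 70 of the 56305 genes of the table. The symbol rule leaves out the cytosolic Hsp90 genes Hsp90aa1 and Hsp90ab1, whose values are given with the partner genes. All mice were males of 5 weeks, fed ad libitum and collected at ZT6, that is, 6 h after lights on. Vps15LKO mice are AlbCre+;Vps15 f/f, so that Cre under the albumin promoter deletes Vps15, the regulatory subunit of class 3 PI3K, in the liver. Which liver cells lost the gene was not measured here. The control mice are labelled WT only, and the alleles they carry at the Vps15 locus are not given in the sources used here.

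Hsp70 proteins bind exposed hydrophobic stretches of unfolded proteins in a cycle driven by ATP. J-domain proteins bring clients to Hsp70 and stimulate its ATPase, and nucleotide exchange factors then release ADP and the client. Each compartment has a set of its own, with Hspa8 in the cytosol, Hspa5 (BiP) in the endoplasmic reticulum and Hspa9 (mortalin) in the mitochondrial matrix. Small heat shock proteins hold unfolded clients without ATP. Hsf1 induces the cytosolic genes through heat shock elements, and the unfolded protein response induces the reticulum genes through endoplasmic reticulum stress elements.

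The reads counted on genes lay between 16137093 and 18110223 per library. The deposited values are normalized counts, reads divided by 1 DESeq2 size factor per library, and these factors were 0.742 to 0.801 in WT and 1.23 to 1.41 in Vps15LKO libraries, so that 1 read weighs less in Vps15LKO. Pik3r4, which encodes Vps15, had 508, 573 and 460 normalized counts in WT livers and 341, 362 and 355 in Vps15LKO livers, which amounts to −0.54 ± 0.11 on the log2 scale (± standard error, adjusted p = 0.0021) and became 0.19 (not called) when libraries were scaled to the same total of reads. The livers also differed in cell type markers. Of 8 hepatocyte markers tested, 7 were called lower in Vps15LKO. The summed level of all 8 went from 2804116–3170938 to 822125–1248006 normalized counts. Most of this sum was Alb, the 1 not called (means 2183718 and 792222). Called higher were 7 of 7 cholangiocyte markers (1269–1421 to 12338–23806, in Vps15LKO mostly Spp1 with a mean of 14767), 8 of 8 stellate cell and fibroblast markers (5859–6116 to 27445–33214), 4 of 4 muscle markers tested (435–507 to 1445–2306, with Des in this list and the one before) and 8 of 8 proliferation genes (232–607 to 3358–3627). Of the macrophage markers 6 of 8 were called higher and 1, Cd163, lower (summed level 5741–6955 to 20986–21718), of the lymphocyte markers 5 of 6 tested (116–155 to 314–371) and of the neutrophil markers 4 of 4 tested (65–78 to 436–489), and the endothelial markers were divided, 5 higher and 3 lower (6576–7130 to 5627–7121). Of these calls, 3 cholangiocyte, 4 lymphocyte, 3 neutrophil and 4 proliferation genes passed the filter on low counts only through the Vps15LKO livers. The neutrophil genes Mpo and Ly6g and the striated muscle genes Acta1 and Myl1 were at 0 in all WT libraries, and the untested muscle genes Cnn1, Actg2 and Ckm overlapped between genotypes. In whole liver, fewer cells of a type and less RNA per cell cannot be told apart, and the part of cell type in the results below was not tested.

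Of the 70 members, 58 passed the filter, a normalized count of 20 or more in 3 or more livers. Genes were compared with limma on log2(normalized count + 1), and a call needed a fold of 1.2 or more besides an adjusted p under 0.05. In Vps15LKO livers 11 members were called higher, 28 lower and 19 neither, where 33.5% of all 15430 tested genes were called higher and 33.0% lower. Hspb2 and Dnajc27 passed the filter only through the Vps15LKO livers, so that their rise was part of their entry, and without them 9 of 56 members were called higher and 28 lower. The WT and Vps15LKO values did not overlap for 45 of the 58 tested members, against 73.2% of all tested genes. The median log2 fold change of the members was −0.26 (−0.27 without Hspb2 and Dnajc27), beside −0.02 for all tested genes. With a fold of at least 2, 5 members (Hspb2 and Dnajc27 among them) were higher and 9 lower, where 20.9% and 12.7% of all genes were.

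Many calls were gained or lost with the scaling, and a few turned to the opposite direction. TMM scaling called 12 members higher and 25 lower (34.8% and 30.9% of all genes), upper-quartile scaling 12 and 22 (37.3% and 27.5%), and quantile normalization 9 and 23 (30.4% and 37.6%). When every library was scaled to the same total of reads, 33 members were called higher and 9 lower (66.7% and 11.1% of all genes), because the median of all genes itself moved from −0.02 to 0.70. Relative to that median, the median of the members was −0.25 with the deposited values and −0.24 with total reads, a scaling that moves all genes of a library alike, and −0.11 after quantile normalization, which does not. The members called the same way with the deposited values, TMM, upper-quartile, quantile and total-read scaling were 7 higher (Hspb1, Dnajc27, which entered through the Vps15LKO livers, Hspa2, Dnajc10, Dnajc5, Hspa4l and Dnajc8) and 8 lower (Dnajc28, Hspa1b, Dnajc3, Dnajc22, Hspb6, Dnaja1, Dnajc21 and Dnajb11). Dnaja2, Dnajb4, Dnajc14 and Hspb8 were called lower with the deposited values and higher with total reads. After quantile normalization Dnaja2, Dnajb4, Dnajb5, Dnajc14, Hspb8, Hsp90b1, Hspa5, Hspd1, Hspa12b, Dnajc9 and Hspb2 were no longer called, and Hspa9 was called in the opposite direction. Calls gained there were Hspa8 (1.38), higher, and Dnaja4 (−0.71), Dnajc24 (−0.92) and Hspa12a (−0.64), lower.

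**Figure D1:**
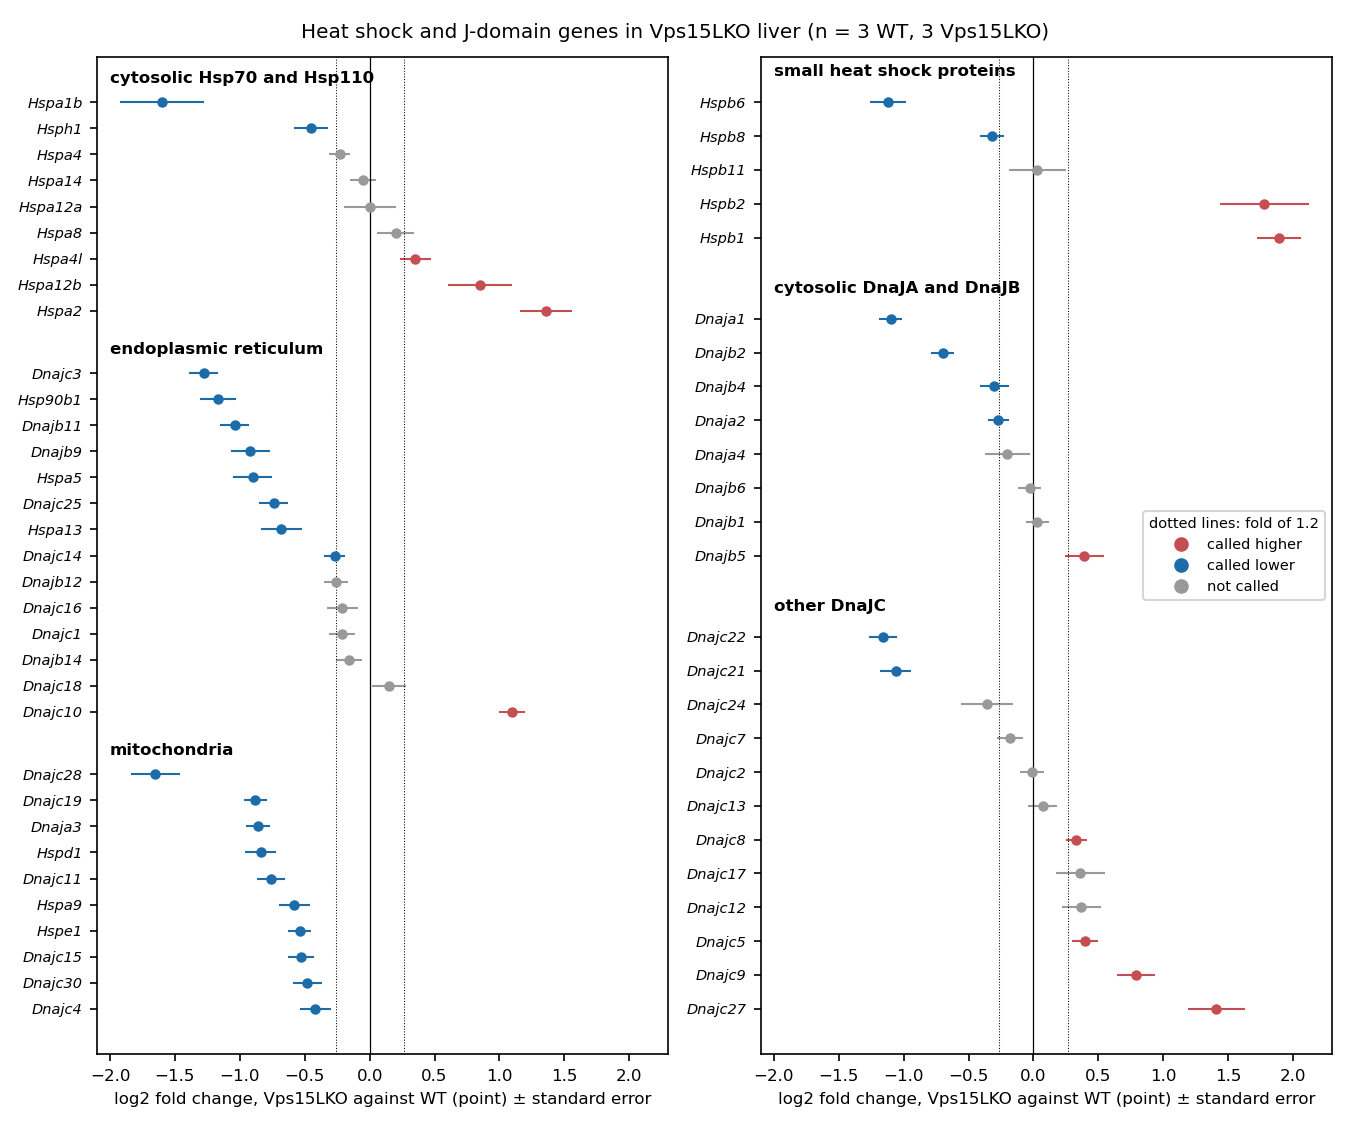
Log2 fold change of the 58 tested members between Vps15LKO and WT liver (x axis, deposited normalized counts), by role group, with points for the estimate, bars for the standard error and dotted lines at a fold of 1.2. All 10 mitochondrial members and 8 of 14 reticulum members were called lower on this scale, and with total-read scaling these counts were 1 and 3.

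The shares that members take of each other's reads do not depend on the scaling between libraries. Member genes together held 0.409%, 0.418% and 0.462% of all reads in WT livers and 0.51%, 0.503% and 0.546% in Vps15LKO livers. Within these reads the shares of several role groups differed between genotypes, without passing the adjusted test below, and a few abundant genes weighed heavily. Hspa8 alone went from 17% ± 0.719 to 26.7% ± 1.9 of member reads. Hsp90b1 went from 13.9% ± 0.685 to 8.47% ± 0.947 and Hspa5 from 11.3% ± 1.62 to 8.28% ± 0.372. Cytosolic Hsp70 and Hsp110 genes went from 20.9% ± 0.651 (SD, n = 3) to 31.5% ± 2.02, and the reticulum genes went from 39.7% ± 2.76 to 30% ± 1.24. The mitochondrial genes went from 21.8% ± 1.13 to 18.5% ± 1.14, and small heat shock proteins from 3.91% ± 0.321 to 4.88% ± 0.183. Cytosolic DnaJA and DnaJB genes had 7.59% ± 0.227 in WT and 7.26% ± 0.153 in Vps15LKO, with overlapping livers, and the other DnaJC genes had 6.13% ± 0.499 and 7.84% ± 0.423. The groups of livers did not overlap in 5 of these 6 shares, and the exact two-sided permutation p was 0.1 for each of the 5, the smallest that 3 livers against 3 allow, and 0.2 for DnaJA and DnaJB, or 0.12 and 0.2 after Benjamini-Hochberg adjustment over the 6 shares.

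**Figure D2:**
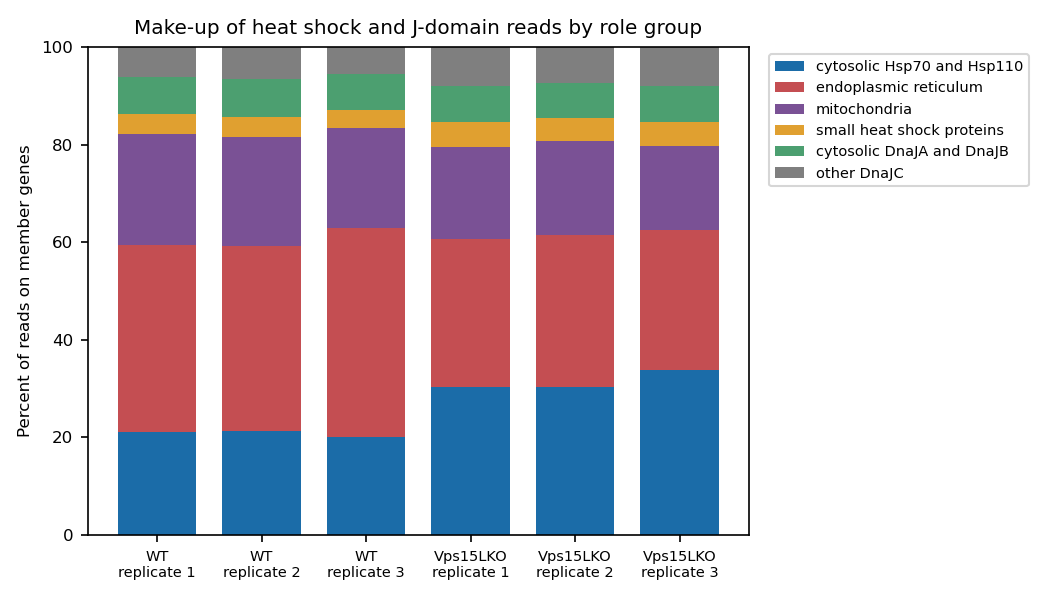
Percent of the reads on member genes (y axis) that fell on each of the 6 role groups in each of the 6 livers (x axis). Cytosolic Hsp70 and Hsp110 genes held 20.1% to 21.3% in WT and 30.3% to 33.8% in Vps15LKO livers, and reticulum genes 37.9% to 42.9% and 28.7% to 31.1%.

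Hspa8, the constitutive Hsc70 that drives cytosolic folding and chaperone-mediated autophagy, was the most abundant member per length in both genotypes. It lies at chr9:40800984-40810087 of GRCm38. It had 16817, 16451 and 16254 normalized counts in WT livers and 17908, 18884 and 20147 in Vps15LKO livers. The livers did not overlap, but the log2 fold change of 0.20 ± 0.14 did not pass the test (adjusted p = 0.24, 95% interval −0.08 to 0.48). Its share of member reads was 17% ± 0.719 in WT and 26.7% ± 1.9 in Vps15LKO livers, and it was called higher by quantile normalization (1.38) and by total reads (0.93).

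Of the 11 cytosolic Hsp70 and Hsp110 genes, 9 were tested, 3 called higher and 2 lower, with a median log2 fold change of 0.00. Hspa1b, an inducible Hsp70 and a classical target of Hsf1, had 111, 106 and 140 normalized counts in WT livers and 32.8, 65.6 and 26.2 in Vps15LKO livers. All Vps15LKO livers were below all WT livers, at a log2 fold change of −1.60 ± 0.32 (adjusted p = 0.002), 3.03-fold lower. Hspa1a is a near-identical copy, so that reads of the pair may be split or dropped by the counting. Hspa1a alone had 5.3, 2.5 and 14.8 normalized counts in WT and 13, 18.6 and 11.3 in Vps15LKO, too few for the filter, and the summed pair went from 127 ± 24.8 to 55.9 ± 25 without overlap. Hspa2, a Hsp70 best known from the testis, moved the other way. It had 45.1, 48.7 and 39.1 normalized counts in WT livers and 105, 98.1 and 147 in Vps15LKO livers, a log2 fold change of 1.36 ± 0.20 (adjusted p = 0.00037), 2.56-fold higher.

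Hspa4l, a cytosolic exchange factor of the Hsp110 family, had 263, 322 and 334 normalized counts in WT livers and 402, 394 and 373 in Vps15LKO livers (0.35 ± 0.12, adjusted p = 0.026). It was no longer called without WT replicate 1 (0.25) or without Vps15LKO replicate 1 (0.33) or 2 (0.35). Its relative Hsph1 (Hsp105) was called lower, from 488 ± 66 to 355 ± 37.4 normalized counts (−0.45 ± 0.13, adjusted p = 0.014), was no longer called without Vps15LKO replicate 1 (−0.37) and stood at 0.27 with total reads. The third relative, Hspa4, did not reach the fold of 1.2 (−0.23, adjusted p = 0.039) and was called higher with total reads (0.50). Hspa12b, an atypical Hsp70 of endothelial cells, was higher at low counts, 28.1 ± 7.05 against 50.9 ± 8.24 (0.85, adjusted p = 0.016), and was no longer called without Vps15LKO replicate 3 (0.74) or after quantile normalization (0.18). Hspa14 and Hspa12a were not called, at −0.05 and 0.00, and Hspa1l had 14.1 to 20 normalized counts in the 6 livers, below the filter.

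The reticulum set was the largest by reads in WT liver. All 14 of its genes were tested, and 8 were called lower and 1 higher, with a median of −0.48. With total reads, 7 were called higher and 3 lower, with a median of 0.25 where all genes had 0.70. Relative to the median of all genes, the group stood at −0.46 with the deposited values and at −0.10 after quantile normalization. Of 58 members with a RefSeq promoter window (250 bases before to 50 after the start), 3 held the endoplasmic reticulum stress element (CCAAT and CCACG with 9 bases between them) on either strand, namely Hspa5, Hsp90b1 and Dnajc3. This is 5.17% of the members and 0.137% of 27025 genes with a window. The stretches with the element are shown because all 3 genes were called lower. They come from RefSeq promoters (GRCm38.p6), read 5′ to 3′ on the strand of the gene with the element in capitals. The Hspa5 bases, all 30 of them in an annotated exon of Hspa5, are chr2:34772020-34772049 on the plus strand, those of Hsp90b1 chr10:86705513-86705676 on the minus strand, where the second element reads on the opposite strand, and those of Dnajc3 chr14:118937802-118937870 on the plus strand.
Hspa5: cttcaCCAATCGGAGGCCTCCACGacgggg
Hsp90b1: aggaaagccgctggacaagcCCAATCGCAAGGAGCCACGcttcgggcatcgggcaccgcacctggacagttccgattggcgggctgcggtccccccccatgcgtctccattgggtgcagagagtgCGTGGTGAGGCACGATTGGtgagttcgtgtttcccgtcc
Dnajc3: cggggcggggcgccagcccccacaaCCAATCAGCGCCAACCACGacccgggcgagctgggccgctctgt

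Hsp90b1 (Grp94), the Hsp90 of the reticulum, lies at chr10:86690209-86705509. It had 13098, 12741 and 14786 normalized counts in WT livers and 6047, 6864 and 5186 in Vps15LKO livers. Every Vps15LKO liver was below every WT liver, at a log2 fold change of −1.17 ± 0.14 (adjusted p = 0.00012), 2.25-fold lower. It was still called lower with total reads (−0.45) but not after quantile normalization (−0.20). Hspa5, the master Hsp70 of the reticulum (chr2:34771970-34777547), had 10496, 9452 and 13208 normalized counts in WT livers and 5785, 6371 and 5503 in Vps15LKO livers, again without overlap. Its log2 fold change was −0.90 ± 0.15 (adjusted p = 0.00074), but it was not called with total reads (−0.17) or after quantile normalization (0.03).

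The J-domain partners of Hspa5 did not all move alike. Dnajc3 (p58IPK), which delivers clients to Hspa5 and restrains Perk, had 3862, 4036 and 4413 normalized counts in WT livers and 1659, 1880 and 1537 in Vps15LKO livers. It was 2.43-fold lower (−1.28 ± 0.11, adjusted p = 1.8e-05) and still called lower with total reads (−0.55). Dnajb11 (ERdj3), which binds nascent clients in the lumen, had 1391, 1128 and 1425 against 601, 680 and 627 normalized counts (−1.04 ± 0.11, adjusted p = 6.8e-05), also lower with total reads (−0.31). Dnajb9 (ERdj4), which represses the sensor Ire1 through Hspa5, had 1769, 1895 and 2550 against 1068, 1216 and 975 (−0.92 ± 0.15, adjusted p = 0.00067), and with total reads −0.19, not called. In these genes the groups of livers did not overlap.

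Dnajc10 (ERdj5), a disulfide reductase with a J domain, went the opposite way. It had 516, 543 and 593 normalized counts in WT livers and 1188, 1068 and 1301 in Vps15LKO livers, 2.15-fold higher (1.10 ± 0.10, adjusted p = 3.3e-05), and was called higher under all 5 scalings. The ratio of Dnajc10 to Dnajc3 counts, which is free of the scaling and was chosen after the values were seen, was 0.134, 0.135 and 0.134 in WT livers and 0.716, 0.568 and 0.846 in Vps15LKO livers. Among the remaining reticulum genes, Dnajc25 (−0.74), Hspa13 (−0.68) and Dnajc14 (−0.27) were called lower. Dnajc14 was no longer called without WT replicate 1 (−0.25) or without Vps15LKO replicate 1 (−0.27) or 3 (−0.25), and 17% of its exon bases lie opposite Ormdl2, which was called lower (−0.82). Dnajb12, Dnajb14, Dnajc1, Dnajc16 and Dnajc18 were not called, at −0.26 to 0.15. Dnajb12 was called lower without WT replicate 1 (−0.29) or 3 (−0.28) or Vps15LKO replicate 2 (−0.28), and Dnajc16 without WT replicate 1 (−0.32).

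On the deposited scale all 10 mitochondrial members were called lower, without overlap between the livers, at a median of −0.67 and between −0.42 and −1.65. With total reads 1 of the 10, Dnajc28, was called lower and the median was 0.05. Quantile normalization called 8 lower and Hspa9 higher, and relative to the median of all genes the group then stood at −0.47, where it was −0.65 with the deposited values. In WT livers Hspa9 (2126 ± 131 normalized counts per kb) and Hspd1 (2118 ± 25.1) differed by less than their spread. Hspa9, the Hsp70 of the matrix and of the import motor, had the highest mean of the group per length in both genotypes. It had 9613, 9343 and 8530 normalized counts in WT livers and 6185, 6637 and 5575 in Vps15LKO livers (−0.58 ± 0.12, adjusted p = 0.0024), with 0.15 by total reads and 0.33 after quantile normalization.

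Hspd1 (Hsp60) and Hspe1 (Hsp10) form the folding chamber of the matrix and its lid, and their genes lie head to head on chromosome 1. Hspd1 had 5536, 5583 and 5667 normalized counts in WT livers and 3226, 3523 and 2688 in Vps15LKO livers (−0.84 ± 0.12, adjusted p = 0.0003), and Hspe1 1291, 1070 and 1175 against 813, 812 and 794 (−0.54 ± 0.09, adjusted p = 0.00094). Both were lower in every Vps15LKO liver on this scale, and neither was called with total reads (−0.11 and 0.18). After quantile normalization Hspd1 was no longer called (−0.22), while Hspe1 was still called lower (−0.34). The ratio of Hspd1 to Hspe1 overlapped between genotypes, at 4.77 ± 0.466 and 3.9 ± 0.481 (exact permutation p = 0.2). Their annotated exons share 112 bases. Before the start of Hspe1 and before 1 of the 2 RefSeq starts of Hspd1 lies a run of heat shock repeats, shown because windows of both genes hold it, at chr1:55088053-55088082 on the plus strand, with the letters of GAANNTTC or TTCNNGAA in capitals. The other Hspd1 start lies upstream of the run, and all 30 bases are part of an annotated exon of Hspd1.
Hspe1: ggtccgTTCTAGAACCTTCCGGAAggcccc

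This run holds the longer heat shock element, 3 alternating repeats of GAA and TTC with 2 bases between neighbours, searched on both strands, which also occurred in the windows of Hsph1 and Dnajb6. The longer element was thus in 4 of the 58 members with a window (6.9%) and in 0.662% of all genes, and each match also counts as one of the shorter element, which was in 16 members (27.6%) and in 17% of all genes. Of the 4, Hspd1, Hspe1 and Hsph1 were called lower and Dnajb6 was not called. The E-box CACGTG, the letters bound by Bmal1–Clock, was in the windows of 6 members (10.3%) and of 8.09% of all genes. These 6 were Dnajb9, Hspd1 and Hsph1, called lower, Dnajc8, called higher, and Dnajc1 and Dnajc16, which were not called. A match of letters is not a site shown to be bound.

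Dnajc28 had a fall close in size to that of Hspa1b, with 203, 265 and 272 normalized counts in WT livers and 88.6, 85.9 and 60.8 in Vps15LKO livers (−1.65 ± 0.19, adjusted p = 9.1e-05, 3.13-fold lower). It was called lower under all 5 scalings. The import motor cochaperones Dnajc19 (893 ± 50.3 to 484 ± 15.7 normalized counts, −0.88) and Dnajc15 (422 ± 34.5 to 291 ± 13.9, −0.53), the matrix J protein Dnaja3 or Tid1 (1828 ± 55.4 to 1007 ± 67.4, −0.86) and Dnajc11 of the cristae junctions (978 ± 34.3 to 579 ± 80.9, −0.76) were each called lower. Dnajc30 (−0.48) and Dnajc4 (−0.42) completed the group. Dnajc4 was no longer called without Vps15LKO replicate 1 (−0.38), and 26.2% of the exon bases of Dnajc30 lie opposite Bud23, which was called lower (−0.45).

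**Figure D3:**
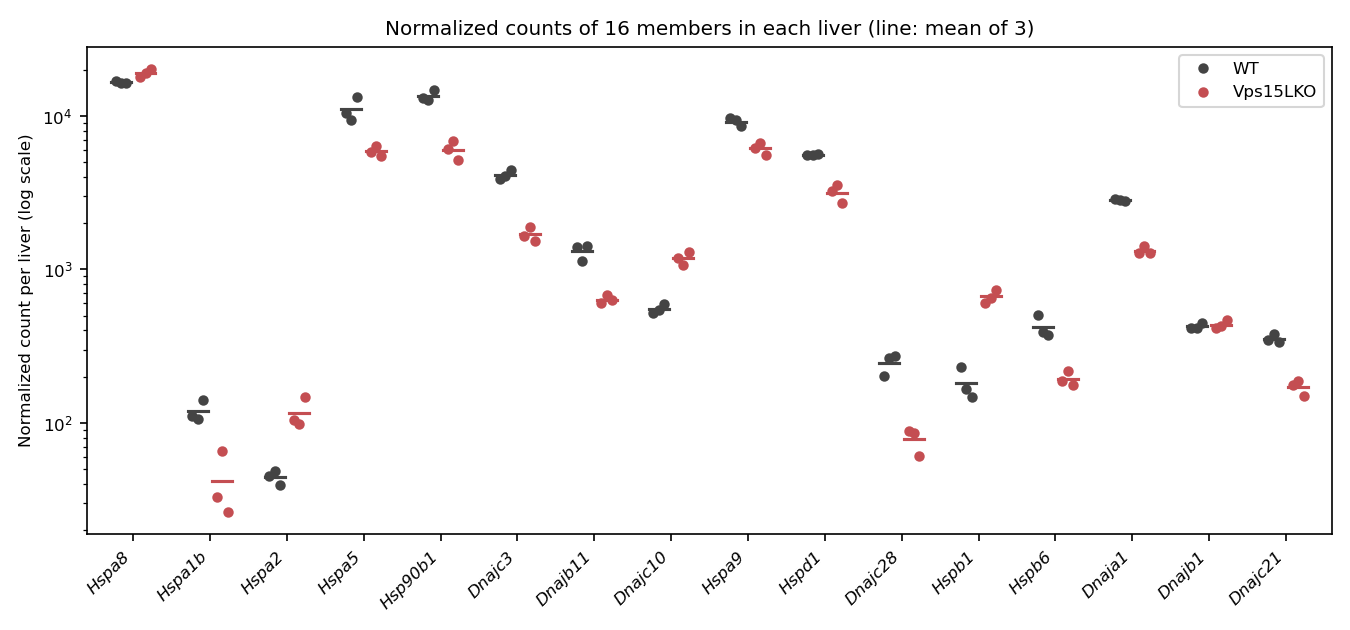
Normalized counts (log scale) of 16 members in each of the 3 WT and 3 Vps15LKO livers, with points for livers and lines for means. Hspb1, Hspa2 and Dnajc10 were higher in every Vps15LKO liver and called higher under all 5 scalings, Hspa1b, Dnajc3, Dnajb11, Dnajc28, Hspb6, Dnaja1 and Dnajc21 were lower and called lower under all 5, and Dnajb1 overlapped between genotypes.

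The small heat shock proteins were divided. Of 8 members, 5 were tested, 2 called higher and 2 lower, with a median of 0.03, and without Hspb2, which passed the filter only through the Vps15LKO livers, 1 was higher and 2 lower (median −0.14). Hspb1 (Hsp25), an actin-binding holdase, had 231, 166 and 147 normalized counts in WT livers and 608, 653 and 736 in Vps15LKO livers. It rose 3.71-fold (1.89 ± 0.17, adjusted p = 2.4e-05), and it went from rank 25 to rank 7 of the 58 members by counts per kb of exon. Hspb6 (Hsp20), a relative best known from muscle, had 504, 392 and 376 against 186, 217 and 177 normalized counts (−1.12 ± 0.14, adjusted p = 0.00016, 2.18-fold lower). Both calls held under all 5 scalings.

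Hspb8, which works with Bag3 in selective autophagy of misfolded clients, was the most abundant small heat shock gene per length in both genotypes. It had 3132, 3219 and 2960 normalized counts in WT livers and 2547, 2456 and 2459 in Vps15LKO livers (−0.32 ± 0.09, adjusted p = 0.01), and with total reads it was called higher (0.41). The ratio of Hspb1 to Hspb8, chosen after the values were seen, went from 0.0583 ± 0.0133 to 0.268 ± 0.0304 without overlap. Hspb2 was higher at low counts, 5.3, 8.74 and 6.74 against 24.4, 20.3 and 34.7 (1.78 ± 0.34), given without a p because of its entry through the Vps15LKO livers, and quantile normalization did not call it. Of its exon bases 30.2% lie on the other strand of Cryab, which itself went from 86.2, 92.4 and 93 to 303, 274 and 489 normalized counts (1.91 ± 0.21, adjusted p = 6.8e-05), and whether the counting used strand is not stated. Hspb11, which despite its name is a protein of intraflagellar transport, overlapped between genotypes (0.03, adjusted p = 0.92).

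The promoters of Hspb1 and Hspa1b, the small heat shock gene and the inducible Hsp70 that moved in opposite directions, both hold the short element GAANNTTC, in capitals here. The bases are chr5:135887782-135887849 on the plus strand and chr17:34959309-34959368 on the minus strand of GRCm38.p6, from RefSeq.
Hspb1: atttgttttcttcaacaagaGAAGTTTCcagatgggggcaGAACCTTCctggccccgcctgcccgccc
Hspa1b: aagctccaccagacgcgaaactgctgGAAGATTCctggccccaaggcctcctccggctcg

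The cytosolic DnaJA and DnaJB genes recruit Hspa8. Of 12, 8 were tested, 1 called higher and 4 lower, with a median of −0.23, and with total reads 6 were called higher and 1 lower. Dnaja1 had 2883, 2820 and 2798 normalized counts in WT livers and 1284, 1420 and 1270 in Vps15LKO livers, 2.14-fold lower (−1.10 ± 0.09, adjusted p = 1.3e-05), and was lower under all 5 scalings. Dnaja2, the most abundant of the group per length, had 1838, 1901 and 1890 against 1597, 1572 and 1515 (−0.27 ± 0.08, adjusted p = 0.017). This call was lost without WT replicate 2 (−0.26) or 3 (−0.26) or without Vps15LKO replicate 1 (−0.28) or 3 (−0.24), and became higher with total reads (0.46). Dnajb1 (Hsp40), the stress-inducible partner of Hspa1b and Hspa8, had 415, 418 and 449 normalized counts in WT and 414, 428 and 467 in Vps15LKO livers, which overlapped (0.03, adjusted p = 0.81, 95% interval −0.16 to 0.21), and with total reads it was called higher (0.75). The ratio of Dnaja1 to Dnajb1 went from 6.64 ± 0.366 to 3.05 ± 0.303.

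Dnajb2 was called lower, from 850 ± 22.7 to 523 ± 44.5 normalized counts (−0.70, adjusted p = 0.00021), and was near 0 by total reads (0.02). Dnajb4 was called lower (−0.30) and was no longer called without WT replicate 2 (−0.33) or 3 (−0.23) or Vps15LKO replicate 2 (−0.24) or 3 (−0.30). Dnajb5 had 137, 111 and 99.8 against 147, 157 and 148 normalized counts (0.39 ± 0.15, adjusted p = 0.045), and its call was lost without any 1 of the livers other than WT replicate 1, at 0.29 to 0.41. Dnajb6, which keeps polyglutamine proteins from aggregating, and Dnaja4 were not called (−0.03 and −0.20), and 44.1% of the exon bases of Dnaja4 lie opposite Wdr61. Dnajb13, a gene of ciliary axonemes, did not pass the filter, with 0, 0 and 4.04 normalized counts (0, 0 and 3 reads) in WT and 19.9, 17 and 15.6 in Vps15LKO livers, and 11.2% of its exon bases lie opposite Ucp2, which went from 796 ± 167 to 4662 ± 210.

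The other DnaJC proteins use their J domain in specialised tasks. Of 15, 12 were tested, 4 called higher and 2 lower, with a median of 0.20, and without Dnajc27, which passed the filter only through the Vps15LKO livers, 3 were higher and 2 lower (median 0.07). The falls were Dnajc22, the most abundant of the group per length in WT liver, with 1612, 1608 and 1376 against 674, 755 and 632 normalized counts (−1.16 ± 0.11, adjusted p = 2.8e-05), and Dnajc21, a factor of ribosome assembly, with 347, 378 and 337 against 176, 186 and 150 (−1.06 ± 0.12, adjusted p = 8.6e-05). Both were lower in every Vps15LKO liver and under all 5 scalings.

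Among the 4 rises was Dnajc9, a histone chaperone. It had 74.3, 68.7 and 86.3 normalized counts in WT and 122, 133 and 143 in Vps15LKO livers (0.79 ± 0.15, adjusted p = 0.0015). Quantile normalization did not call it. Of the 8 proliferation genes, all called higher, 4 passed the filter only through the Vps15LKO livers, and a link to Dnajc9 was not tested. Dnajc5, the cysteine string protein of secretory vesicles, had 1230, 1389 and 1318 against 1809, 1581 and 1816 (0.40 ± 0.10, adjusted p = 0.0056). Dnajc8, a splicing factor, had 560, 540 and 545 against 721, 658 and 685 (0.33 ± 0.08, adjusted p = 0.0081). At low counts, Dnajc27, a Rab-like GTPase with a J domain, went from 17.9 ± 2.67 to 49 ± 1.21 normalized counts (1.41 ± 0.22), given without a p for the same reason as Hspb2. Dnajc5 and Dnajc8 were called higher under all 5 scalings.

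Dnajc12, the cochaperone of aromatic amino acid hydroxylases, had 130 ± 16.2 and 168 ± 19.8 normalized counts (0.37, adjusted p = 0.052) and was called higher without WT replicate 1 (0.46). Dnajc2, which sits on the ribosome, Dnajc7, Dnajc13, Dnajc17 and Dnajc24 were not called, at −0.36 to 0.36, and with total reads all but Dnajc24 were called higher. Below the filter, Dnajc6, the auxilin that uncoats clathrin vesicles, had 1.33, 2.5 and 2.7 against 6.87, 12.2 and 12 normalized counts, and Hspb7 3.98, 5 and 8.09 against 13.7, 13.8 and 17. Dnajb3, Dnajb7 and Hspb9 had at most 6.74 in any liver, and Dnajb8, Dnajc5b, Dnajc5g and Hspb3 were at 0 in all 6.

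By counts per kb of exon, the 4 most abundant members were Hspa8, Hsp90b1, Hspa5 and Hspa9 in both genotypes. In WT livers Hspa8 (3838 ± 66.4 normalized counts per kb) stood above Hsp90b1 (3359 ± 271), Hspa5 (2613 ± 458), Hspa9 (2126 ± 131) and Hspd1 (2118 ± 25.1). The last 2 differed by less than their spread. In Vps15LKO livers Hspa8 (4413 ± 261) stood well above Hsp90b1 (1496 ± 208), Hspa9 (1423 ± 124) and Hspa5 (1392 ± 105), and these 3 did not differ beyond their spread. The ratio of Hspa5 to Hspa8 was 0.624, 0.575 and 0.813 in WT and 0.323, 0.337 and 0.273 in Vps15LKO livers, without overlap.

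The livers of 1 genotype also differed among themselves. Of the 14 reticulum genes, 9 were highest among WT livers in replicate 3, including Hspa5, Hsp90b1, Dnajc3, Dnajb9 and Hspa13. The summed level of 8 immediate early genes, which respond to handling, was 11679, 7386 and 3749 in WT replicates 1 to 3 and 8718 to 9289 in Vps15LKO livers. Among Vps15LKO livers, 6 of 10 mitochondrial genes were highest in replicate 2 and 7 were lowest in replicate 3. The hepatocyte marker sum was likewise highest in replicate 2 (1248006) and lowest in replicate 3 (822125), where the cholangiocyte sum was highest (23806) and Hspb1, Hspb2 and Hspa2 also had their highest values. The part of these differences in the results was not tested.

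**Figure D4:**
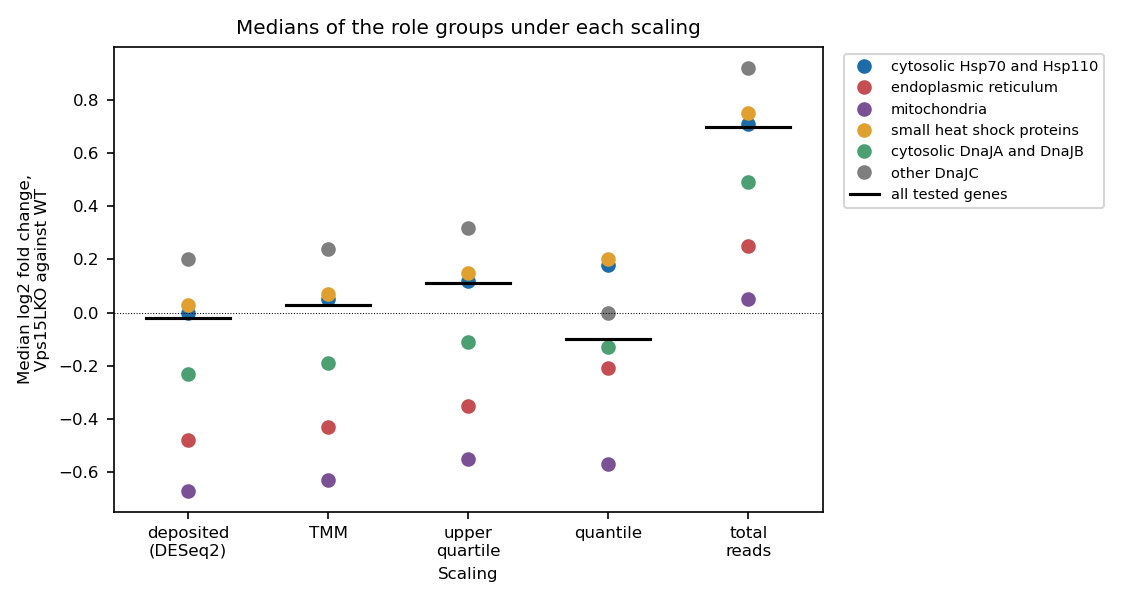
Median log2 fold change (y axis) of each role group (points) and of all tested genes (black lines) under 5 scalings (x axis). Mitochondrial and reticulum genes had the lowest 2 medians of the 6 groups under each scaling, but the sign of the reticulum median was negative at −0.48 with the deposited values and positive at 0.25 with total reads.

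Partner genes outside the symbol rule were taken from 9 lists of 63 genes, of which 60 were tested. On the deposited scale 11 were called higher and 29 lower (33.5% and 33.0% of all genes), with a median of −0.25. With total reads 38 were higher and 5 lower (66.7% and 11.1% of all genes). After quantile normalization 13 were higher and 20 lower (30.4% and 37.6% of all genes), with a median of 0.10. Hsf1, the main heat shock factor, had 431, 416 and 441 normalized counts in WT livers and 363, 373 and 366 in Vps15LKO livers, a fold under 1.2 (−0.22 ± 0.09, adjusted p = 0.047), and was called higher with total reads (0.50). Hsf2, a second factor of the family, had 407, 387 and 434 against 250, 264 and 225 normalized counts and was called lower (−0.73 ± 0.11, adjusted p = 0.00034), though not with total reads (−0.01). Hsp90aa1, the stress-inducible cytosolic Hsp90, had 1744, 1569 and 2041 against 2743, 2920 and 3154 normalized counts (0.73 ± 0.12, adjusted p = 0.00064). Its constitutive relative Hsp90ab1 had 15149, 15474 and 13824 against 17610, 17577 and 19040, not called by limma (0.29 ± 0.14, adjusted p = 0.097) but called higher by DESeq2 (0.29) and after upper-quartile (0.41), quantile (1.41) and total-read (1.01) scaling. Trap1, the mitochondrial Hsp90, was lower (3949 ± 346 to 2015 ± 300, −0.98 ± 0.13, adjusted p = 0.0002), though not with total reads (−0.25). The ratio of Hsp90b1 to Hsp90ab1 went from 0.919 ± 0.132 to 0.335 ± 0.0594 without overlap.

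Of 14 Hsp90 cochaperones 1 was called higher and 7 lower, and 10 higher and 2 lower with total reads, with the largest fall in Cdc37l1 (2037 ± 177 to 816 ± 80.3 normalized counts, −1.32, adjusted p = 1.6e-05). The 1 higher was Tomm34 (0.37, adjusted p = 0.016), which was no longer called without WT replicate 2 (0.34) or without Vps15LKO replicate 1 (0.37) or 3 (0.34), nor after quantile normalization (0.25). Of 11 exchange factors and Hsp70 regulators 2 were called higher and 6 lower, and 7 higher and 2 lower with total reads. Bag4 (755 ± 83 to 262 ± 20.6, −1.52, adjusted p = 1e-05) and Hyou1, the exchange factor of Hspa5 (3084 ± 576 to 1086 ± 158, −1.50, adjusted p = 5.4e-05), fell, also with total reads (−0.80 and −0.77), and Bag2 rose (64.4 ± 19 to 112 ± 5.22, 0.83, adjusted p = 0.0098), a call lost after quantile normalization (0.34).

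Of 10 other reticulum chaperones, 9 were called lower and 1 higher, with 3 higher and none lower by total reads and with 3 higher and 3 lower after quantile normalization. The largest fall was Manf (2045 ± 511 to 972 ± 55.9 normalized counts, −1.04, adjusted p = 0.00064). The exception was Serpinh1 (Hsp47), the chaperone of procollagen, with 170, 180 and 241 against 984, 1187 and 1320 normalized counts (2.56 ± 0.16, adjusted p = 4.4e-06), beside the 8 of 8 stellate cell and fibroblast markers called higher. Among J-domain proteins with other names, Sec63 of the translocon fell (3242 ± 98.2 to 1369 ± 159, −1.25, adjusted p = 1.9e-05).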

How the data were processed

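Total liver RNA of 3 WT and 3 Vps15LKO mice was sequenced after poly(A) selection. The authors used SOAPnuke to filter the reads, HISAT2 to align them to GRCm38 and featureCounts to count them per gene. The deposited signal is that count after division by a DESeq2 size factor for each library. Versions, strand and multi-mapping settings are not given in the sources used here. All values above 0 were whole multiples of 1 read (100% of them within 0.01 of a whole number), so reads were recovered.

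Symbols and exons came from GENCODE M21 (55227 of 56305 genes matched). log2(normalized count + 1) was fitted with limma 3.58.1 (eBayes with a trend, R 4.3.3) over the 15430 genes that reached 20 normalized counts in 3 or more livers, with Benjamini-Hochberg adjustment. Values are mean ± SD, log2 fold changes ± standard error, and the log2 scale understates folds of low genes. Fits were also run on simulated counts in which few genes changed, evenly up and down, which cannot decide between the scalings. Alternatives were other pseudocounts, filters, thresholds and scalings, no trend, count models on the recovered reads (limma voom, DESeq2 1.42.0, edgeR 4.0.16), each library left out, and replicate number as a block. Numbers do not state that mice share a litter, so no block was used. Shares and ratios were computed within each library. Promoter windows came from RefSeq (GRCm38.p6).

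Members, role groups, partner and marker lists were chosen with earlier results of these data known. Values are given for the most abundant member per kb of each role group, the 10 largest rises and 10 largest falls among called members that averaged 100 normalized counts or more (7 rises qualified), Hsf1, Hsp90aa1, Hsp90ab1 and the largest called change each way per partner list, of which 1 is not reported here. Other genes named singly were chosen after their values were seen. Tables and plots were made with Python 3.11.15, pandas 2.3.3 and matplotlib 3.10.9.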

Additional observations from a re-analysis of the deposited data

How the results depend on the processing

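Of the 58 tested members, edgeR, limma voom and pseudocounts of 0.1 and 10 changed no call. Leaving out each library in turn reversed no member; of 39 called members 31 kept the call and 8 lost it, and 3 others gained it. The ranges over the libraries left out were 9 to 11 members higher and 24 to 29 lower (median −0.27 to −0.25), 2 to 3 and 1 to 2 for cytosolic Hsp70, 0 to 1 and 2 to 4 for cytosolic DnaJA and DnaJB, and 7 to 10 and 25 to 31 for partner genes. The block of replicate number gave 10 higher and 27 lower members, with 0 DnaJA and DnaJB genes higher. Pairs with the same number correlated at −0.00992, −0.0114 and 0.0485, and pairs with different numbers at −0.0633 to 0.0881. With so few livers these values cannot decide whether the number pairs the mice.

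With a fold of at least 2, 5 members were higher and 9 lower. By group the counts were 1 and 1 for cytosolic Hsp70, 1 and 3 for the reticulum, 0 and 1 for mitochondria, 2 and 1 for small heat shock genes, 0 and 1 for DnaJA and DnaJB, 1 and 2 for other DnaJC, 3 and 6 for partners and 3228 and 1957 for all genes, and Pik3r4 (−0.54) was not called. The median of the members was −0.22 with no filter, −0.22 with TMM, −0.14 with upper-quartile, −0.21 with quantile and 0.46 with total-read scaling. A filter of 20 in every library left 1 small heat shock gene higher, and DESeq2 called 0 DnaJA and DnaJB genes higher. TMM called 2 DnaJA and DnaJB genes lower. Upper-quartile scaling called 1 cytosolic Hsp70, 1 small heat shock and 2 DnaJA and DnaJB genes lower. Quantile normalization called 5 reticulum genes lower, 1 mitochondrial gene higher, 1 small heat shock gene higher and 1 lower, and 0 DnaJA and DnaJB genes higher. Among members called on either scale, it turned the sign of Dnaja2 (0.11), Hspa12a (−0.64), Hspa5 (0.03), Hspa9 (0.33) and Hspb8 (0.20).

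Total-read scaling called 33 members higher and 9 lower: 7 and 1 cytosolic Hsp70, 7 and 3 reticulum, 0 and 1 mitochondrial, 4 and 1 small heat shock, 6 and 1 DnaJA and DnaJB, 9 and 2 other DnaJC, 38 and 5 partner genes, and 10299 and 1712 of all genes. It shifted all genes by its construction. It turned the sign of Pik3r4 (0.19), Hsf1 (0.50) and, counting genes called on either scale, 22 members: Dnaja2 (0.46), Dnaja4 (0.52), Dnajb12 (0.46), Dnajb14 (0.57), Dnajb2 (0.02), Dnajb4 (0.42), Dnajb6 (0.69), Dnajc1 (0.52), Dnajc14 (0.45), Dnajc15 (0.19), Dnajc16 (0.51), Dnajc2 (0.72), Dnajc30 (0.24), Dnajc4 (0.31), Dnajc7 (0.55), Hspa13 (0.04), Hspa14 (0.68), Hspa4 (0.50), Hspa9 (0.15), Hspb8 (0.41), Hspe1 (0.18) and Hsph1 (0.27). Dnajc24 (0.36) also changed sign but was called on neither scale. For the other settings the cause was not tested. Counts under the filter limit what can be said of the 12 untested members.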

Other observations

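Of 7 tested subunits of the TRiC chaperonin, which folds actin and tubulin, Tcp1 was called lower (4911, 4457 and 4451 normalized counts in WT against 2577, 2566 and 2325 in Vps15LKO livers, −0.89, limma adjusted p = 7e-05) and Cct2 higher (1495 ± 105 against 1821 ± 53.5, 0.29, adjusted p = 0.019), with the other 5 not called. The call on Cct2 was lost without WT replicate 2 (0.27) or 3 (0.24) or without Vps15LKO replicate 1 (0.30) or 3 (0.26). With total reads 6 of the 7 were called higher and Tcp1 stood at −0.16, not called. Of 6 prefoldin subunits, which hand clients to TRiC, 2 were called higher and 2 lower (4 and 0 with total reads), with the largest changes in Vbp1 (135 ± 15.1 against 221 ± 7.01, 0.71, adjusted p = 0.00097) and Pfdn2 (546 ± 19.3 against 332 ± 23.3, −0.72, adjusted p = 0.00021), the latter at 0.01 with total reads.

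Pseudogenes that match the symbols of members numbered 14, and 3 passed the filter. Hspd1-ps3 had 200, 136 and 257 normalized counts in WT and 70.3, 87.5 and 100 in Vps15LKO livers, Dnajc19-ps had 86.2, 67.5 and 97.1 against 61.1, 51.1 and 50.2, and Hspa9-ps1 had 29.2, 27.5 and 27 against 16, 27.6 and 13.4. Whether their reads come from the parent genes was not tested.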
